A study of Arabidopsis thaliana with 6 samples.

Results

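PHV and HAT2 are homeodomain-leucine zipper (HD-ZIP) genes of Arabidopsis thaliana, and their transcript levels were examined in microdissected root meristems of plants that overexpress the microRNA miR396. The members were all probe sets that the platform annotation assigns to PHV or HAT2 alone. Each gene had 1 such probe set, and they are 2 of 13356 genes that the annotation names by a probe set of their own on this Affymetrix array. Both genes were chosen by their log2 fold changes between these groups, which were known beforehand, so their levels and differences are given as a description without a test.

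Root meristems were taken 7 days after sowing from untreated 35S:miR396 plants (3 arrays) and from wild-type (WT) plants (3 arrays). In 35S:miR396 plants the viral 35S promoter, which is active in most plant cells, drives miR396, so overexpression was not limited to 1 cell type. The accession and the number of transgenic lines are not given in the sources used here. The samples are labelled biological replicates with no statement on how they were grown apart, so p-values cover only the spread of these arrays.

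HD-ZIP proteins bind DNA through a homeodomain and pair through the leucine zipper beside it. Class III members such as PHV (PHAVOLUTA) also carry a START lipid-binding domain. They specify the adaxial side of lateral organs and pattern the xylem in the root, where miR165 and miR166 restrict their transcripts to the centre of the stele. HAT2 belongs to class II, whose members repress transcription, and it is known as a gene that auxin induces early in seedlings. Members of the classes are connected in Arabidopsis, where the class III factor REV directly activates some class II genes. The growth-regulating factor genes, the best-known targets of miR396, are in neither class. The comparison asks how the microRNA-restricted class III gene and the auxin-induced class II gene differ in level when miR396 is overexpressed.

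Each array gave a log2 GCRMA value per probe set, from a floor of 2.25 up to 14.3. About 35% of probe sets other than controls lay within 0.1 of the floor in each array. A probe set was tested if it reached 4 in at least 3 of the 6 arrays, and 11364 did. The first principal component of these held 70.4% of the variance. Its scores were 37.9, 11.3 and 27.2 in replicates 1, 2 and 3 of 35S:miR396, against -22.9, -24.6 and -28.9 in WT, so that replicate 2 of 35S:miR396 lay nearest to WT. Of the tested probe sets 25.0% were called (limma, adjusted p under 0.05), 12.7% higher and 12.3% lower in 35S:miR396. Precision is limited by having 3 arrays in a group.

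PHV was higher in 35S:miR396 and HAT2 was lower. PHV had log2 values of 4.74, 4.94 and 4.78 in replicates 1, 2 and 3 of 35S:miR396, against 4.16, 4.28 and 4.29 in WT. The groups did not overlap, and the lowest 35S:miR396 array lay 0.45 above the highest WT array. The group means were 4.82 ± 0.11 in 35S:miR396 and 4.24 ± 0.07 in WT (SD, n = 3 each). The log2 fold change was 0.58 ± 0.11 (limma SE), which is 1.49-fold. In bulk tissue a change in the number of cells of a type and a change in RNA per cell cannot be told apart.

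HAT2 had log2 values of 5.73, 5.92 and 6.18 in replicates 1, 2 and 3 of 35S:miR396, against 7.07, 6.67 and 7.32 in WT. Here too the groups did not overlap, with a gap of 0.49 between the highest 35S:miR396 array and the lowest WT array. HAT2 averaged 5.94 ± 0.22 in 35S:miR396 and 7.02 ± 0.33 in WT (SD, n = 3 each). The log2 fold change was -1.08 ± 0.19 (SE), a level 2.11-fold lower in 35S:miR396. Its arrays were more scattered than those of PHV in both groups, with a range of 0.45 in 35S:miR396 and 0.65 in WT, while those of PHV were 0.20 and 0.13.

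**Figure D1:**
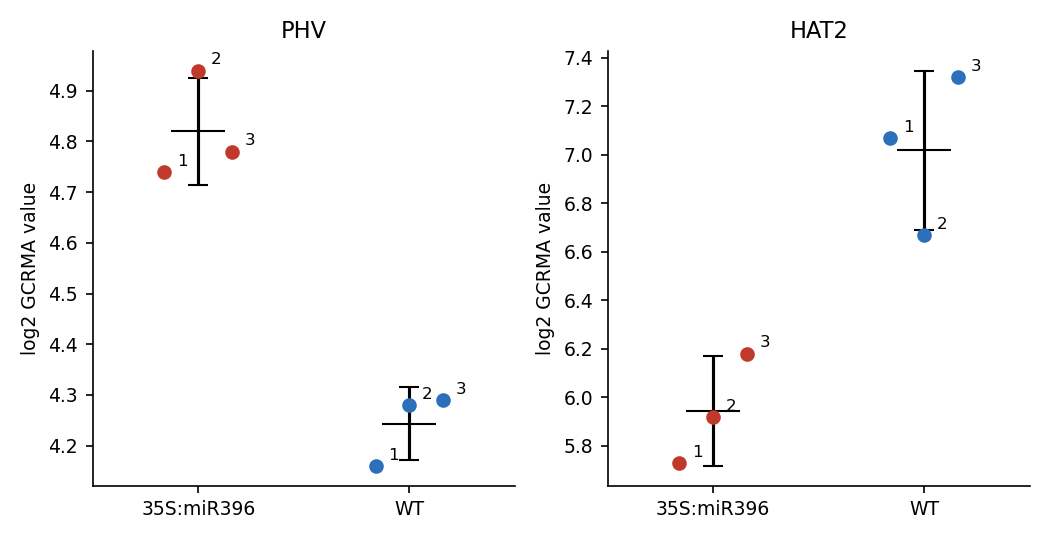
Log2 GCRMA value (vertical axis) of PHV and of HAT2 in each array, by group, with replicate numbers beside the points and the group mean ± SD (n = 3) as bars; the axes do not start at 0. All 35S:miR396 arrays lie above all WT arrays for PHV (from 4.74 up, against at most 4.29) and below them for HAT2 (at most 6.18, against at least 6.67).

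Among all tested probe sets, groups that do not overlap were common, at 45.7% (21.5% higher and 24.3% lower in 35S:miR396), and nothing is read from it for the members. The size of the difference was larger for HAT2. A larger absolute log2 fold change than that of HAT2 was found at 3.92% of tested probe sets, and than that of PHV at 14.2%. Counting only their own direction, 1.07% of tested probe sets had a log2 fold change below that of HAT2 and 8.99% had one above that of PHV. The median log2 fold change of all tested probe sets was -0.015, which is close to 0.

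**Figure D2:**
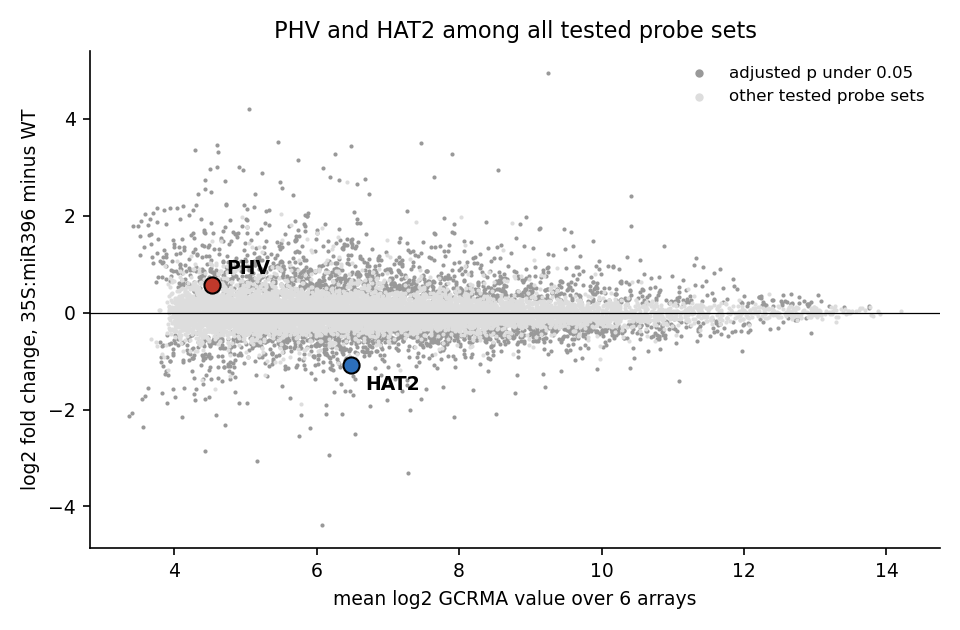
Log2 fold change (35S:miR396 minus WT, vertical axis) against the mean log2 GCRMA value over 6 arrays (horizontal axis) for 11364 tested probe sets, with those at an adjusted p under 0.05 in dark grey. PHV (0.58) lies at the dim end and within the bulk of called probe sets, and HAT2 (-1.08) lies near the lower edge at a middle level.

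PHV was a dim probe set. All 6 of its values passed the minimum of 4, the 3 WT arrays included, but its lowest array lay only 1.91 above the floor on the log2 scale. It was not tested when the minimum was 5. HAT2 stayed at least 3.48 above the floor. GCRMA draws dim values towards the floor, and the part this played in the fold of PHV was not tested. The probe sequences were not used here, so hybridisation of PHV's close relative PHB or of HAT2's close relative HAT1 to these probes was not tested either.

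Taken within each array, the log2 value of PHV minus that of HAT2 is free of scaling that shifts all values of an array alike. The difference does not cancel scaling that depends on level. Relative to its WT mean this difference was 1.78, 1.80 and 1.37 in replicates 1, 2 and 3 of 35S:miR396, against -0.13, 0.38 and -0.25 in WT. The change between groups was 1.65 on the log2 scale, with an SD of 0.24 in 35S:miR396 and 0.34 in WT (n = 3 each), so that the ratio of PHV to HAT2 was 3.15-fold higher in 35S:miR396. No array of one group came within the range of the other. That was fixed by the groups not overlapping in either gene, so nothing is read from it.

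Replicate 2 of 35S:miR396, the array nearest to WT over all tested probe sets, was not nearest to WT for these genes. It had the highest PHV value of the 6 arrays, 0.70 above the WT mean, where replicates 1 and 3 stood 0.50 and 0.53 above it. For HAT2 it was the middle array of its group, 1.10 below the WT mean, with replicates 1 and 3 at 1.29 and 0.84 below it (values of -1.10, -1.29 and -0.84). Without replicate 2 of 35S:miR396 the log2 fold changes were 0.52 ± 0.12 for PHV and -1.06 ± 0.22 for HAT2 (SE). Replicate 3 was the highest WT array for both genes and replicate 1 the lowest 35S:miR396 array for both, while the highest 35S:miR396 array was replicate 2 for PHV and replicate 3 for HAT2. Across the 6 arrays the Pearson r between the genes was -0.89, while their deviations from the group means had an r of 0.02.

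Leaving out each array in turn gave log2 fold changes from 0.52 to 0.62 for PHV and from -1.25 to -0.93 for HAT2. The widest of these HAT2 values came without replicate 2 of WT (-1.25), its lowest WT array. Both genes were past the threshold of the whole-table fit in 13 of the 14 settings, the reported one included. The count is a description and no support for either gene, because this contrast chose them and the settings refit the same arrays. HAT2 was not past the threshold with no filter on dim probe sets, at the same log2 fold change, and PHV was not tested under the stricter filter. Array weights moved HAT2 to -0.80 ± 0.18 and PHV to 0.54 ± 0.09 (SE). They gave replicate 2 of 35S:miR396 the lowest weight (0.403). The highest weight (2.5) went to replicate 2 of WT and to replicate 3 of 35S:miR396. For HAT2 these are the lowest WT array and the highest 35S:miR396 array.

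**Figure D3:**
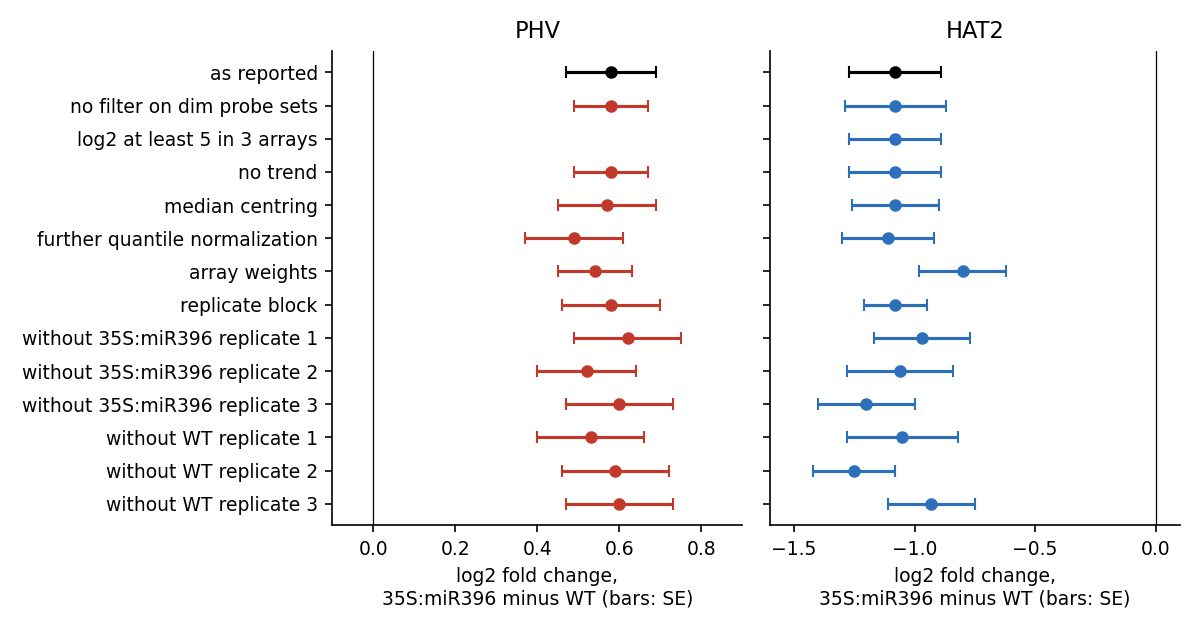
Log2 fold change (35S:miR396 minus WT, horizontal axis) of PHV and HAT2 with its SE under the reported setting (black) and each alternative. PHV stays between 0.49 and 0.62 and HAT2 between -1.25 and -0.80, and PHV has no value under the minimum of 5.

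None of the other HD-ZIP genes could be set beside them. Of 48 listed genes of classes I to IV, PHV and HAT2 were the only ones with a probe set of their own in the annotation used here, and none of the 4 LITTLE ZIPPER genes, whose small proteins block class III factors, had one. The class III relatives PHB, REV, CNA and ATHB8 and the class II relatives HAT1, HAT3 and ATHB2 were therefore not analysed here. Whether the values of PHV and HAT2 hold for their classes was not tested.

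Some homeodomain and leucine zipper factors outside the HD-ZIP family were measured. HAT3.1, a homeodomain protein with a PHD finger that shares only part of its name with HAT2, had a log2 fold change of -0.30 ± 0.11 (SE) and did not pass the test (limma, adjusted p = 0.0725). It passed with array weights (-0.38, adjusted p = 0.0121; up to 0.192 over the other alternatives). Of 17 bZIP genes, whose proteins pair through a leucine zipper but have no homeodomain, 10 were tested: 1 rose, 2 fell and 7 did not pass, with a median of -0.09. This share is to be read against 25.0% over all tested probe sets. EEL, a factor of abscisic acid signalling, rose by 2.65 ± 0.13 (log2, SE) and BZIP61 fell by 0.79. Of the 6 fits that left out 1 array, the call of bZIP52 (-0.46 ± 0.13, SE) held only in the one without replicate 2 of 35S:miR396, and it was also lost when dim probe sets were kept (limma adjusted p = 0.135). Its values in the fits that lost it were -0.34 and -0.49 with replicate 1 or 3 of 35S:miR396 left out, and -0.49, -0.49 and -0.41 with replicate 1, 2 or 3 of WT left out.

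HAT2 is known as an auxin-induced gene, and the genes of auxin signalling that could be tested were few. Of 67 listed genes for auxin receptors, response factors, Aux/IAA repressors, transporters and GH3 enzymes, 11 had a probe set of their own and 2 were tested. Both encode GH3 enzymes, which conjugate auxin to amino acids, and neither passed the test in either direction by limma; the unadjusted p was under 0.05 for 1 of them. GH3.17 had log2 values of 7.30, 6.83 and 7.38 in 35S:miR396, against 6.70, 6.86 and 6.67 in WT, and replicate 2 of 35S:miR396 lay among the WT arrays. Its log2 fold change was 0.43 ± 0.15 (SE, limma adjusted p = 0.0796). Without replicate 2 of 35S:miR396 it was 0.60 (adjusted p = 0.00717), and with array weights 0.51 (0.0105). WES1 (GH3.5) stood at 0.29 ± 0.14 (SE).

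Many Aux/IAA genes encode short-lived repressors that auxin removes, and many are induced by auxin. Whether each of those named below is of this kind was not examined here. All 7 that had a probe set of their own (IAA18, IAA20, IAA29, IAA30, IAA31, IAA33 and IAA34) failed the filter. IAA33 reached 4 in a single array (4.05 in replicate 3 of WT), and the others stayed below 4 in every array. None of them can therefore serve as a second auxin readout beside HAT2.

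Further auxin genes were drawn from those the annotation names, after the values had been opened. Together with the earlier lists these gave 5 tested genes, of which none rose, 1 fell and 4 did not pass, with a median of 0.29, where 12.3% of all tested probe sets fell. UGT74D1, a glucosyltransferase of auxin and its oxidised form, fell by 0.59 on the log2 scale (SE 0.12, limma adjusted p = 0.0140). It did not pass once replicate 3 of 35S:miR396 was left out (-0.57, adjusted p = 0.0520) or when dim probe sets were kept (0.0778). WAG2, a kinase that directs PIN auxin carriers, stood at -0.01 ± 0.28 (SE). Of the auxin synthesis list YUC2, YUC4, YUC6, YUC11 and SHI, none passed the filter.

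Class III activity in the root is tied to microRNA processing and, through cytokinin, to the size of the meristem. SE, a zinc-finger protein of microRNA processing, had a log2 fold change of 0.01 ± 0.08 (SE), and JKD, a zinc-finger partner of SHR and SCR in the ground tissue, had -0.07 ± 0.17 (SE). The other 12 genes of that list, among them AGO1, AGO10 and SHR, had no probe set of their own. Of 8 cytokinin genes 1 was tested. UGT76C2, which inactivates cytokinin by glucosylation, had log2 values of 5.77, 5.81 and 5.65 in 35S:miR396, against 3.83, 3.77 and 3.88 in WT. Its log2 fold change was 1.92 ± 0.10 (SE). It passed the filter through its 35S:miR396 arrays alone, so nothing is read from its call.

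ARR15, a response regulator gene that cytokinin induces, was singled out after its values were seen. It had log2 values of 2.40, 2.93 and 2.33 in 35S:miR396, against 3.77, 3.75 and 3.80 in WT, all below the minimum of 4. The groups did not overlap, which also held for 45.7% of tested probe sets, a set without ARR15. The 35S:miR396 arrays were near the floor, and nothing is read from ARR15. No fold or test is given for it.

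Genes of organ polarity and meristem control, a list drawn after the values had been opened, gave 11 tested members besides PHV. Of these 5 rose, none fell and 6 did not pass, with a median log2 fold change of 0.39, where 12.7% of all tested probe sets rose. CLE41, the precursor of a peptide that keeps vascular stem cells dividing, had log2 values of 4.44, 4.02 and 4.47 in 35S:miR396, against 2.47 to 2.63 in WT, near the floor. CLE41 passed the filter through its 35S:miR396 arrays alone. The list was also chosen with earlier results of these data known, so nothing is read from its count of risen genes. ULT1, which limits the size of shoot and floral meristems, rose by 1.24 ± 0.09 (SE). UPB1, a bHLH repressor of peroxidase genes, did not pass once replicate 3 of 35S:miR396 was left out (1.09, limma adjusted p = 0.0518). With dim probe sets kept, neither UPB1 (adjusted p = 0.0912) nor AGL42 (0.0838) passed. YAB3 and YAB5, which act on the abaxial side of organs opposite to class III factors, did not pass the filter.

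**Figure D4:**
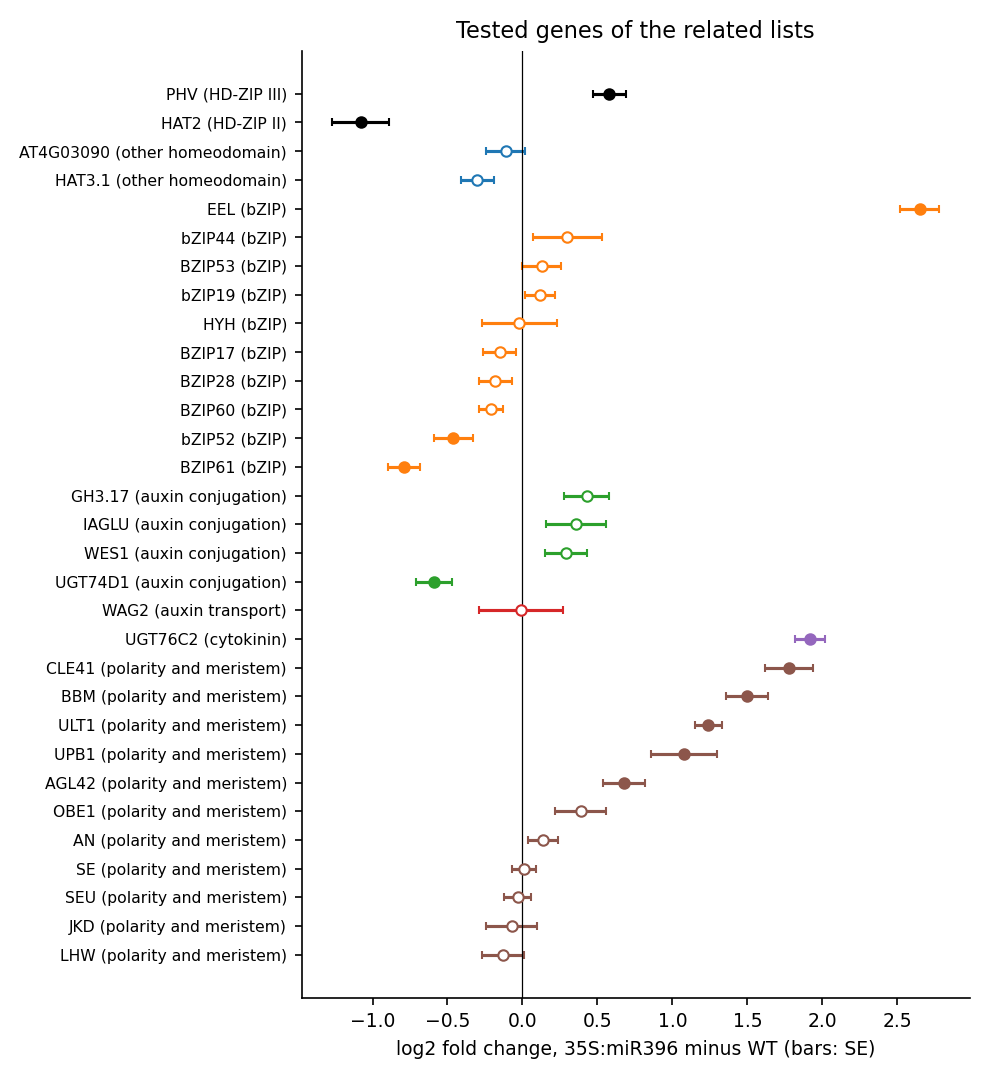
Log2 fold change (35S:miR396 minus WT, horizontal axis) with its SE for PHV and HAT2 (black, top, a description only) and for tested genes of 6 lists. These are the lists drawn from the annotation that had a tested member, with the marker lists left out. Among the list genes, filled points have an adjusted p under 0.05 and open points do not. PHV (0.58) is below the called meristem genes, which start at AGL42 (0.68). HAT2 (-1.08) is lower than every other gene shown, the next being BZIP61 (-0.79). Nothing is read from these places, since the members and the lists were chosen with earlier results of these data known.

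The ranking took in only tested probe sets with a symbol of their own rather than a locus code (874 of 11364, the members included). These were ranked by their likeness to each member, as Pearson r over the 6 arrays, and the rest were not ranked. Such an r mostly reflects the gap between the groups, and 4.32% of the other tested probe sets had an r of at least 0.9 with PHV and 7.14% with HAT2. The ranking used the same 6 arrays as the test. A call, or an order of arrays shared with PHV or HAT2, is therefore no support for a likeness of the ranked genes. The 5 most like PHV were LPR1 (r = 0.996), BBM (0.988), LEP (0.986), SBT1.3 (0.983) and iqd15 (0.977). LPR1 encodes a multicopper oxidase of the root response to low phosphate, BBM and LEP are AP2/ERF-type transcription factors, SBT1.3 encodes a subtilase and iqd15 a calmodulin-binding IQ-domain protein. All 5 passed the test and rose more than PHV did in value, by 1.36 ± 0.18 (iqd15) to 2.22 ± 0.23 (SBT1.3) on the log2 scale (SE). SBT1.3 and iqd15 were below 4 in all WT arrays and passed the filter through their 35S:miR396 arrays alone. LPR1 had log2 values of 5.84, 6.54 and 6.23 in 35S:miR396, against 3.74, 4.09 and 4.25 in WT. In both groups its arrays stood in the order of those of PHV, and the r of their deviations from the group means was 0.93. In all 5, as in PHV, replicate 2 was the highest of the 35S:miR396 arrays.

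The probe sets most opposite to PHV were TO2 (r = -0.991), a mitochondrial thioredoxin gene, UBC30 (-0.988), a ubiquitin-conjugating enzyme gene, and scpl29 (-0.986), a serine carboxypeptidase-like gene. Their differences were small, at -0.14 ± 0.07, -0.30 ± 0.07 and -0.33 ± 0.07 (SE), and TO2 did not pass the test. UBC30 did not pass once replicate 3 of 35S:miR396 (-0.32) or any WT array was left out (-0.28, -0.32 and -0.30 for replicates 1, 2 and 3). Likewise scpl29 did not pass once replicate 3 of 35S:miR396 (-0.33) or replicate 1 (-0.30) or 2 (-0.32) of WT was left out.

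The 5 most like HAT2 were FEY (r = 0.985), ATERDJ3B (0.982), LIP1 (0.981), SPP (0.975) and ATRER1A (0.972). FEY is named for its mutant with an altered shoot meristem, ATERDJ3B encodes a chaperone partner in the endoplasmic reticulum, LIP1 a small GTPase of the circadian clock, SPP a signal peptide peptidase and ATRER1A a retrieval receptor for endoplasmic reticulum proteins. None of these 5 changed as much as HAT2 in value, with log2 fold changes from -0.42 (FEY and ATERDJ3B) to -0.22 (ATRER1A). ATERDJ3B had log2 values of 10.51, 10.51 and 10.61 in 35S:miR396, against 10.91, 10.87 and 11.10 in WT, and in WT its arrays stood in the order of those of HAT2. LIP1 did not pass the test. FEY did not pass once replicate 3 of 35S:miR396 (-0.44) or replicate 1 (-0.41) or 3 (-0.36) of WT was left out. With dim probe sets kept, FEY (limma adjusted p = 0.0582) and ATERDJ3B (0.0577) did not pass. The call of SPP held only without replicate 2 of 35S:miR396 among the fits that leave out an array (from -0.29 to -0.20), and that of ATRER1A held in none of them (from -0.26 to -0.18). Most opposite to HAT2 were Haspin (r = -0.988), a histone kinase gene at 0.17 ± 0.09 (SE), CYS1 (-0.985), a cystatin gene that rose by 0.48 ± 0.07, and ATN1 (-0.982) at 0.19 ± 0.10.

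**Figure D5:**
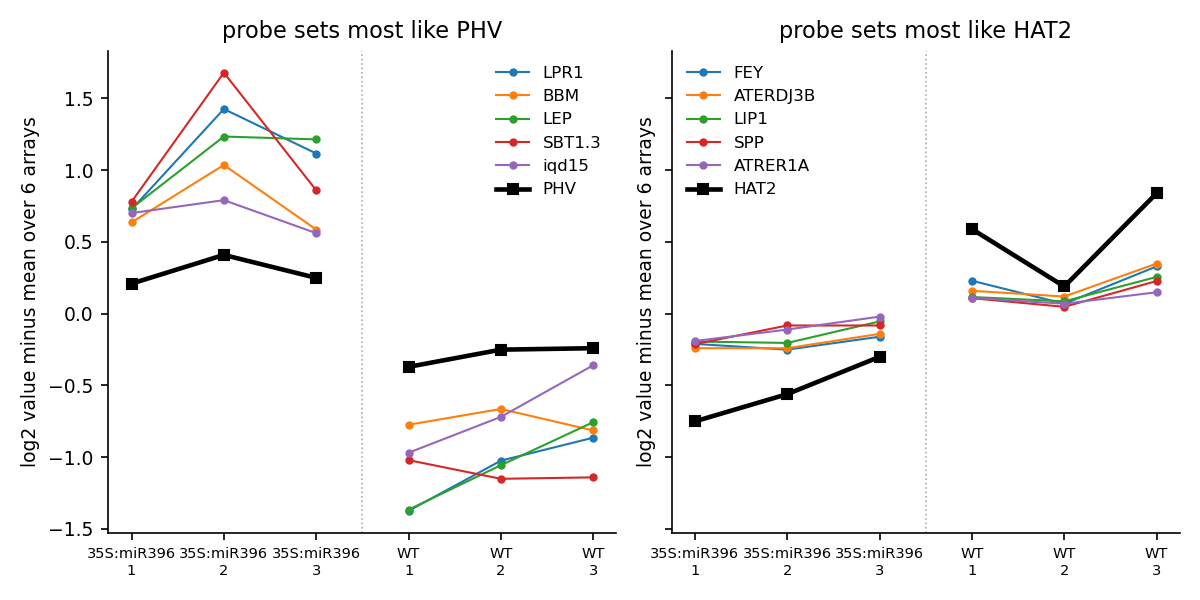
Log2 value minus the gene's mean over 6 arrays (vertical axis) in each array (horizontal axis) for PHV and HAT2 (black) and the 5 named probe sets most like each; replicates have no order and lines join arrays of a group only to guide the eye. Genes like PHV peak in replicate 2 of 35S:miR396 and spread more widely than PHV, and genes like HAT2 follow it at a smaller size.

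The nearest genes on the chromosome were looked up by gene order, 10 protein-coding loci on either side of each member. Around PHV 7 of 20 loci had a probe set of their own and 3 were tested. AT1G30440, 8 loci away, rose by 0.68 ± 0.08 (log2, SE; limma adjusted p = 0.00304), and the other 2 stood at -0.08 and -0.03. Around HAT2 15 of 20 loci had a probe set and 8 were tested, with 1 that fell and none that rose. Over all tested probe sets 12.7% rose and 12.3% fell, so nothing is read from these counts. It was AT5G47420, 4 loci away, which fell by 0.59 (SE 0.09, adjusted p = 0.00604). The tested gene beside HAT2, AT5G47360, had a log2 fold change of -0.17 ± 0.13 (SE). The medians of these neighbours were -0.03 around PHV and -0.02 around HAT2, close to that of all tested probe sets.

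Marker genes were measured beside the members, since PHV belongs to the vascular centre of the root. Of 15 planned vascular markers only LHW, a bHLH factor of vascular division, had a probe set, and it stood at -0.13 ± 0.14 (SE). On a list of 8 vascular genes drawn from the annotation 4 were tested, where 25.0% of all tested probe sets were called. CLE41, which passed the filter through its 35S:miR396 arrays alone, was called higher, GUT1, a xylan synthesis gene, fell by 0.43 and 2 did not pass. The call of GUT1 was lost without replicate 2 of WT (-0.42). The summed linear value of these 8 ran from 390 to 439 in 35S:miR396 and from 445 to 476 in WT. Most of that sum came from GUT1 (mean log2 7.49 in 35S:miR396 and 7.92 in WT) and LHW (7.33 and 7.47). CLE41, CLE44, OPS and GUT2 had higher means in 35S:miR396, at levels that add little to the sum. It is therefore no measure of the vascular list as a whole. IRX15 and IRX15-L of the secondary wall stayed at the floor. The endodermal marker GSO1, the only one of 8 with a probe set, was below 4 in every array, with values from 8.70 to 9.13 in 35S:miR396 and from 9.30 to 12.9 in WT on the linear scale. No root cap marker had one.

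The labelled tissue was checked through 3 of 10 markers of the stem cell niche and of division. AGL42 and BBM rose and AUR1 fell, where 25.0% of all tested probe sets were called. The call of AUR1 held only without replicate 2 of 35S:miR396 among the fits that leave out an array (from -0.32 to -0.25). It was also lost without the trend, under the alternative scalings, with the replicate block and when dim probe sets were kept (limma adjusted p from 0.0506 to 0.0916). The summed linear value of the 3 markers was 376 to 456 in 35S:miR396 and 276 to 314 in WT. All 3 root hair genes (EXPA7, EXPA18 and XTH26) were below 3 in all 6 arrays, with sums of 14.3 to 14.7 in 35S:miR396 and of 14.3 in WT. Of 11 genes of green tissue 9 were below 3 in all arrays, and their sum was 57.4 to 62.5 in 35S:miR396 and 61.0 to 72.1 in WT. What a shift in niche or vascular cells contributed to the levels of PHV and HAT2 was not tested.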

How the data were processed

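Total RNA of 6 root meristem samples was measured on Affymetrix arrays after 3' labelling, per the labels' protocols. The authors deposited GCRMA values, per the submitters' processing notes. Their log2 scale was read from the deposited values, and scanner files were not used here. Groups came from the sample titles. Controls (64) were left out, and 11364 probe sets with a log2 value of at least 4 in at least 3 arrays were fitted with limma 3.58.1 in R 4.3.3 (lmFit, and eBayes with a trend), two-sided, with Benjamini-Hochberg adjustment over all of them. The fit was tested on simulated data. The annotation gave 1 gene for 13513 probe sets; 22 of 199 genes on the planned lists, matched by locus through a TAIR10.1 gene table, had a probe set and 10 were tested. A gene with several took the one with the highest mean. Further lists, and the search of neighbouring loci, were added after the values had been opened. The members and lists were chosen with earlier results of these data known.

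Named genes were PHV, HAT2, up to 4 called members per list by absolute log2 fold change (or the smallest p), and the 5 most like and 3 most opposite probe sets with a symbol of their own. Alternatives covered the filter, trend, scaling, array weights, replicate block and each array left out.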

Additional observations from a re-analysis of the deposited data

How the results depend on the processing

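The log2 fold changes of PHV and HAT2 kept their direction under every alternative that gave a value, which were 12 for PHV and 13 for HAT2. The change of PHV minus HAT2 was 1.34 with array weights, which also moved HAT2 to -0.80, and ran from 1.53 to 1.84 when an array was left out. The number of called probe sets was 941 when dim ones were kept, 4749 with array weights, and ran from 1052 to 3813 when an array was left out. The planned auxin lists had 1 called gene, GH3.17, with array weights, and from 0 to 1 when an array was left out. Values near 0 changed sign when an array was left out, from -0.21 to 0.04 for JKD and from -0.31 to 0.20 for WAG2, which also stood at 0.39 with array weights. When dim probe sets were kept, 10 called genes named in the text besides HAT2 lost their call at the same log2 fold change. The causes were not tested. Whether the replicate numbers pair the samples cannot be settled from these arrays. The deviations of same-numbered samples correlated at 0.40, -0.09 and 0.14, and 3 of 6 samples correlated best with their own number. With the replicate block 2844 probe sets were called, and PHV and HAT2 stood at 0.58 ± 0.12 and -1.08 ± 0.13 (SE). A value for other HD-ZIP genes could not be given under any setting, since none had a named probe set. PHV, whose lowest array lay 1.91 above the floor, is limited by dim signal.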
